A study of Caenorhabditis elegans with 2 samples.

Results

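The genes described here build and maintain the germline of the nematode Caenorhabditis elegans and carry its chromosomes through meiosis. The list names 36 genes of germ granules, of the decision between mitosis and meiosis, of sperm fate, of meiotic chromosome pairing, synapsis and recombination, and of the MES chromatin regulators. A gene was followed where a probe set of the array was annotated with that symbol alone, which gave 34 of the 36 genes and 48 of the array's 22625 probe sets. Of these 34, 32 reached 6 on the log2 scale as the average of the arrays and were called measured, as were 8059 of the 17118 genes with a singly named probe set (47.1%). The genes fog-3 and him-8 lay below this limit, and msh-4 and mes-6 had no probe set of their own.

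Whole wild-type N2 hermaphrodites were compared at the fourth larval stage (L4). The treated animals grew on plates holding 2 µg/mL of pOPC7, a gallate of an oligomeric proanthocyanidin trimer from grape seeds, for 48 hours from the first larval stage (L1). The control animals grew on plain plates for the same time. There was 1 deposited column of values per group, called an array here. No value below therefore has a replicate, no test or p-value was possible, and "higher" or "lower" describes these 2 arrays only. The parents of both groups were kept at 20 °C on the bacterium Escherichia coli OP50, and the labels name no transgene or mutation. In RNA of whole animals, fewer germ cells and less RNA per germ cell cannot be told apart.

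In the worm's gonad, stem cells at the distal end divide under Notch signalling from a somatic niche cell, and the PUF proteins FBF-1 and FBF-2 hold back messages that would start meiosis. As cells leave the niche, the GLD proteins and NOS-3 promote meiotic entry. Homologous chromosomes then pair at special pairing-centre sequences, synapse through the synaptonemal complex and exchange DNA. At the L4 stage the hermaphrodite makes sperm before it turns to oocytes, so the gonad holds dividing, meiotic and spermatogenic cells together.

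The germline genes as a set differed little between the arrays. The median difference of the 32 measured genes, pOPC7 minus control on the log2 scale, was 0.03, beside 0.04 for all 8059 measured genes. Of the 32 genes, 19 were above 0 (59.4%), beside 57.8% of all measured genes. None was higher by 1.5-fold, which 0.732% of all measured genes were. Only mus-81 was lower by 1.5-fold, which 0.211% were. A smaller step of 1.2-fold was passed upward by 3 genes, fbf-1, zim-1 and zim-3 (background 11.6%), and downward by 3, gld-1, mes-3 and mus-81 (background 6.06%). The other 26 lay within 1.2-fold. The SD of the differences over the 32 genes was 0.24, and 0.20 without mus-81, beside 0.20 over all measured genes.

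**Figure D1:**
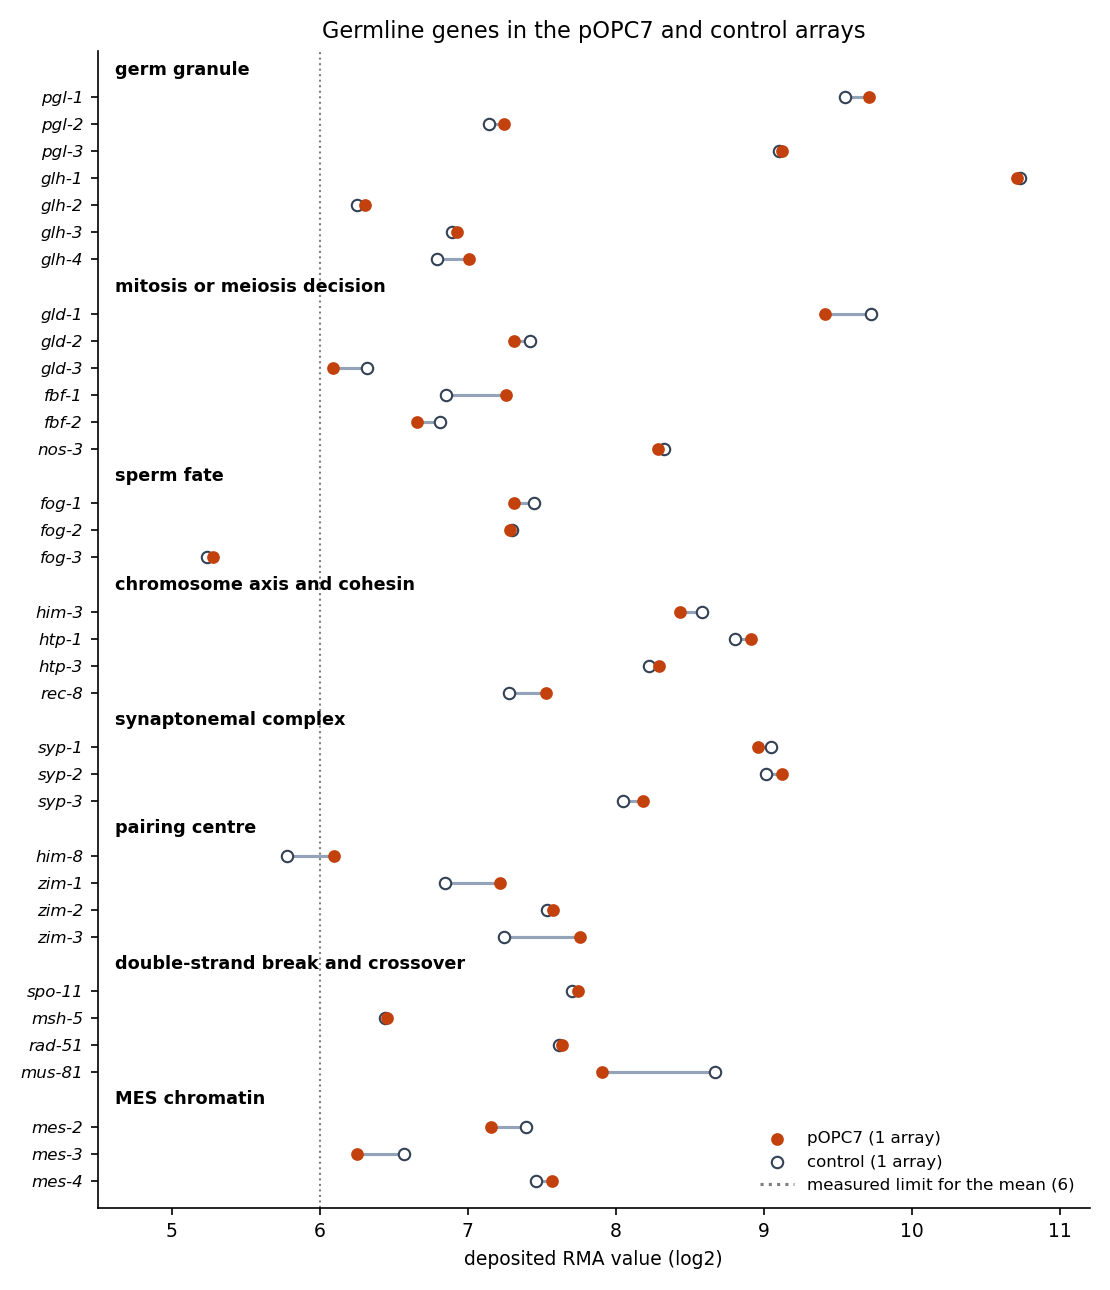
Deposited log2 value of each of the 34 germline genes on the array, grouped by role, in the pOPC7 array (filled) and the control array (open). The points of most genes nearly touch, and the longest gap is that of mus-81 (7.91 with pOPC7 and 8.67 in the control).

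Germ granules are RNA and protein condensates on the nuclei of germ cells, built on PGL proteins and holding the Vasa-like RNA helicases GLH-1 to GLH-4. The 7 genes of this group lay within 1.2-fold, with a median difference of 0.06 and 6 of 7 above 0, although pgl-3 turned below 0 after centring on the median, and glh-2 and glh-3 after removal of a trend with level. The scaffold gene pgl-1 had 9.71 with pOPC7 and 9.55 in the control, a difference of 0.16. Its relatives pgl-2 (7.24 with pOPC7, 7.14 in the control) and pgl-3 (9.12 with pOPC7, 9.10 in the control) differed by 0.10 and 0.02. The helicase genes differed in the same small range. The widest difference was that of glh-4, 7.01 with pOPC7 and 6.79 in the control (0.22), followed by glh-2 (6.31 with pOPC7, 6.25 in the control) and glh-3 (6.93 with pOPC7, 6.89 in the control). The Vasa homologue gene glh-1 had 10.71 with pOPC7 and 10.73 in the control (-0.02), the mean of one probe set at -0.08 and another at 0.03.

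The genes of the choice between mitosis and meiosis leaned the other way, with a median of -0.13 and 1 of 6 above 0, but this rested on a part of their probe sets. gld-1 encodes an RNA-binding translational repressor that drives meiotic entry and later oocyte development. Its value was 9.41 with pOPC7 and 9.73 in the control (-0.31), the mean of one probe set with 8.57 (pOPC7) and 9.27 (control), a difference of -0.70, and another with 10.26 (pOPC7) and 10.18 (control), a difference of 0.08. The first alone would have passed 1.5-fold and the second showed nearly no difference. gld-2, the gene of a cytoplasmic poly(A) polymerase, was covered by 5 probe sets. Its value was 7.31 with pOPC7 and 7.42 in the control (-0.10), with -0.30 and -0.28 in the 2 lowest probe sets and -0.07 to 0.10 in the others.

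GLD-3, a Bicaudal-C homologue, is the partner that activates the GLD-2 polymerase. gld-3 had 6.09 with pOPC7 and 6.32 in the control (-0.23), over 3 probe sets at -0.52, -0.21 and 0.04, the last of which lay at a level of 5.26. nos-3, a Nanos family gene, had 8.28 with pOPC7 and 8.32 in the control (-0.04).

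The paralogues fbf-1 and fbf-2 gave values of opposite sign. They lie on chromosome II with 1 other protein-coding gene between their starts, and their proteins are near-identical PUF repressors that keep stem cells in mitosis. fbf-1 had 7.26 with pOPC7 and 6.85 in the control (0.41), the 257th highest difference of 8059. fbf-2 had 6.66 with pOPC7 and 6.81 in the control (-0.16). One of the probe sets of fbf-2 agreed in sign with fbf-1 (7.56 with pOPC7, 7.26 in the control, 0.30), and the other, a dim one, did not (5.76 with pOPC7, 6.36 in the control, -0.61). A further probe set annotated with both genes, which the one-symbol rule leaves out, had 7.70 with pOPC7 and 7.78 in the control (-0.08). The 4 probe sets of this pair thus spread from -0.61 to 0.41, and signal of one paralogue on the probes of the other cannot be told apart here.

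The FOG genes direct germ cells to become sperm. fog-1, which encodes a cytoplasmic polyadenylation element binding protein, had 7.31 with pOPC7 and 7.45 in the control (-0.14). The F-box gene fog-2 had 7.28 with pOPC7 and 7.30 in the control (-0.02). fog-3, a Tob family gene, was dim at 5.28 with pOPC7 and 5.24 in the control (0.04). All 3 lay within 1.2-fold on 1 probe set each.

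In meiotic prophase the axis of each chromosome is laid down by REC-8 cohesin and by HORMA-domain proteins. rec-8 had 7.53 with pOPC7 and 7.28 in the control (0.25), the highest of the 4 axis genes. Among the HORMA-domain genes htp-1 (8.91 with pOPC7, 8.80 in the control) and htp-3 (8.29 with pOPC7, 8.22 in the control) differed by 0.11 and 0.06. him-3 was lower, at 8.43 with pOPC7 and 8.58 in the control (-0.15), with -0.20 and -0.09 in its probe sets. The synaptonemal complex genes, whose products zip paired axes together, differed by -0.08 for syp-1 (8.96 with pOPC7, 9.05 in the control), 0.11 for syp-2 (9.12 with pOPC7, 9.02 in the control) and 0.13 for syp-3 (8.18 with pOPC7, 8.05 in the control). These 7 genes had no shared direction.

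The pairing-centre genes had the highest median difference of any role group (0.37, over 3 measured genes). HIM-8, ZIM-1, ZIM-2 and ZIM-3 are zinc-finger proteins that bind the pairing centres of particular chromosomes, HIM-8 that of the X and the ZIM proteins those of the autosomes. zim-3 had 7.76 with pOPC7 and 7.24 in the control, a difference of 0.52 or 1.43-fold, the 93rd highest of 8059. zim-1 had 7.22 with pOPC7 and 6.85 in the control (0.37), and 4.43% of measured genes were at or above it. him-8, just under the measured limit with a mean of 5.94, had 6.10 with pOPC7 and 5.78 in the control (0.32). zim-2 differed by 0.04 (7.58 with pOPC7, 7.54 in the control), which turned below 0 when a trend with level was removed, so the group was not uniform. Each of the 4 values rests on 1 probe set.

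The 4 genes stand side by side on chromosome IV in the order zim-1, zim-2, zim-3 and him-8 in the RefSeq annotation of assembly WBcel235, with no other protein-coding gene between them. The flanking genes were looked up after these values were seen. efn-2, an ephrin gene next to him-8, had 6.84 with pOPC7 and 6.37 in the control (0.47). svct-1, next to zim-1, was dim and differed by -0.06 (4.42 with pOPC7, 4.49 in the control). Of the 6 neighbours in a row, svct-1 to efn-2, 4 were thus higher by more than 1.2-fold, beside 11.6% of all measured genes. The stretch was picked after its high values were seen, and svct-1 and him-8 lay below the measured limit. The count therefore only describes this stretch. Another adjacent pair of listed genes, pgl-1 and him-3 on the same chromosome, had opposite signs (0.16 and -0.15).

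**Figure D2:**
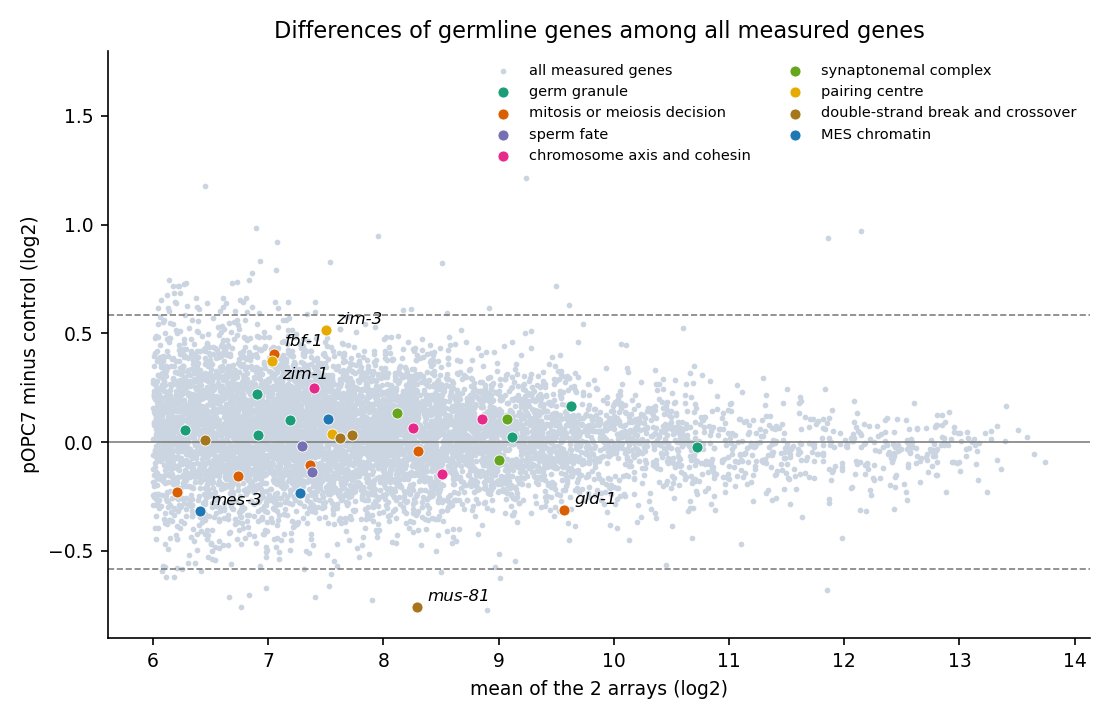
Difference (pOPC7 minus control, log2) against the mean level of both arrays for the 8059 measured genes (grey) and the 32 measured germline genes, coloured by role, with dashed lines at 1.5-fold. The 6 labelled genes passed 1.2-fold, and mus-81 is the germline gene outside the dashed lines.

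Recombination starts when SPO-11 cuts DNA. RAD-51 then coats the broken ends, MSH-4 and MSH-5 stabilise the crossover intermediates, and nucleases that include MUS-81 resolve some joint molecules. Of this group spo-11 (7.74 with pOPC7, 7.71 in the control), rad-51 (7.64 with pOPC7, 7.62 in the control) and msh-5 (6.45 with pOPC7, 6.44 in the control) each differed by less than 0.04, and with the trend removed all 3 turned below 0. mus-81 was the exception. Its value was 7.91 with pOPC7 and 8.67 in the control (-0.76, or 0.59-fold), the second lowest difference of all 8059 measured genes. The differences of the 500 genes nearest in level had a robust SD of 0.18. Counted from a difference of 0, mus-81 stood at -4.15 such SDs. It rests on 1 probe set, with no second one on the array to set against it.

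Genes around mus-81 on chromosome I were also looked up after its value was seen. met-1 (-0.20), C43E11.9 (-0.08) and cdc-6 (-0.23) were lower by less than 1.2-fold and C43E11.12 was higher (0.25), so no other gene of this stretch came near -0.76. For msh-4 the probe set carries a pair of symbols, msh-4 and him-14, and had 5.94 with pOPC7 and 6.02 in the control (-0.08). The RefSeq table lists msh-4 under this symbol as a pseudogene, while him-14 is the gene of a worm MutS homologue in meiosis.

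MES-2, MES-3 and MES-6 form the worm's Polycomb repressive complex, which deposits a repressive histone mark, and MES-4 methylates histones of genes active in the germline. mes-2, the gene of the methyltransferase, had 7.16 with pOPC7 and 7.39 in the control (-0.24). mes-3 had 6.25 with pOPC7 and 6.57 in the control (-0.32), and both its probe sets were below 0 (-0.45 and -0.19). mes-6 shares its probe set with C09G4.4, and this probe set had 7.44 with pOPC7 and 7.47 in the control (-0.03). mes-4 had 7.57 with pOPC7 and 7.46 in the control (0.11), with -0.03 and 0.25 in its probe sets. Both complex genes with a value of their own were therefore lower, but only mes-3 by more than 1.2-fold. That step was passed by the mean of its probe sets, while the one at -0.19 alone lay within 1.2-fold.

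Probe sets of one gene disagreed in a regular way. Of the 34 genes 10 had several probe sets, and in 7 of these, counting probe sets at the measured limit, at least one was above 0 and another below. This was also common elsewhere, at 54.2% of all genes with 2 or more probe sets at that limit. Probe sets of this array are numbered, and a first block of 4126 low numbers, of which 2068 carry a sequence accession in the annotation, is followed by a long run of high numbers without any. The block's end was read from the annotation. In 9 of the 10 genes both kinds were present, and in all 9 the low-numbered value was the lower one, by 0.02 in gld-3 to 0.90 in fbf-2 (median of low minus high -0.26). Among all genes with both kinds at the measured limit, 74.7% had the low-numbered value lower, with a median of -0.19 over 1306 genes. At the same limit gld-3 keeps 1 low-numbered probe set, at -0.52.

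**Figure D3:**
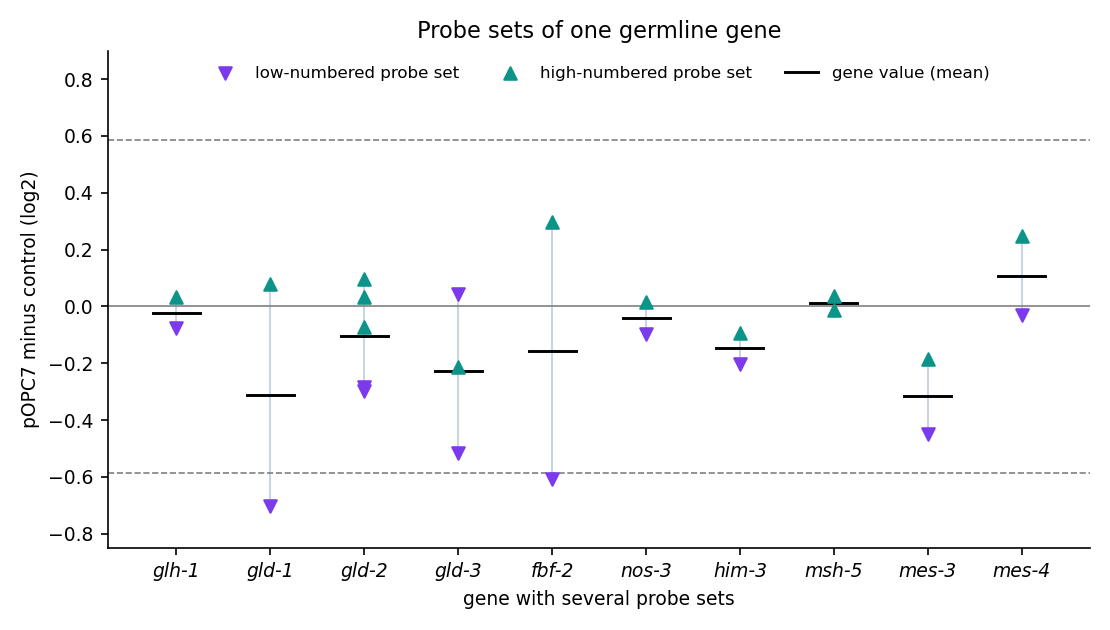
Difference (pOPC7 minus control, log2) of each probe set of the 10 germline genes with several, by kind of number, with the gene's mean as a bar and dashed lines at 1.5-fold. In all genes but msh-5, which has no low-numbered one, the mean of the low-numbered probe sets lies below that of the high-numbered ones; gld-1 and fbf-2 span the widest ranges.

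The sign of several values in the mitosis or meiosis group depended on whether low-numbered probe sets were kept. Of the 11 low-numbered probe sets of germline genes, 10 were below 0, with a median of -0.28. Of the 37 high-numbered ones, 10 were below 0, with a median of 0.04. Over all probe sets at the measured limit, 61.4% of low-numbered and 35.8% of high-numbered ones were below 0. From high-numbered probe sets alone gld-1 was 0.08, gld-2 0.02, fbf-2 0.30, nos-3 0.02 and glh-1 0.03, each above 0, and mes-4 was 0.25. gld-3 (-0.21), mes-3 (-0.19) and him-3 (-0.09) stayed below 0. The values of gld-1 and mes-3 then lay within 1.2-fold, so their place among the genes lower by 1.2-fold depended on the low-numbered probe sets. When the medians of both kinds over all measured probe sets were instead set equal, gld-1 (-0.25), gld-3 (-0.15), fbf-2 (-0.09) and gld-2 (-0.05) were all still below 0, while nos-3 (0.02) and glh-1 (0.04) were above it. With equal medians gld-1 and mes-3 (-0.25) lay within 1.2-fold too. The values of mus-81, mes-2 and the pairing-centre genes rest on high-numbered probe sets only. What makes the low-numbered probe sets lower was not tested.

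**Figure D4:**
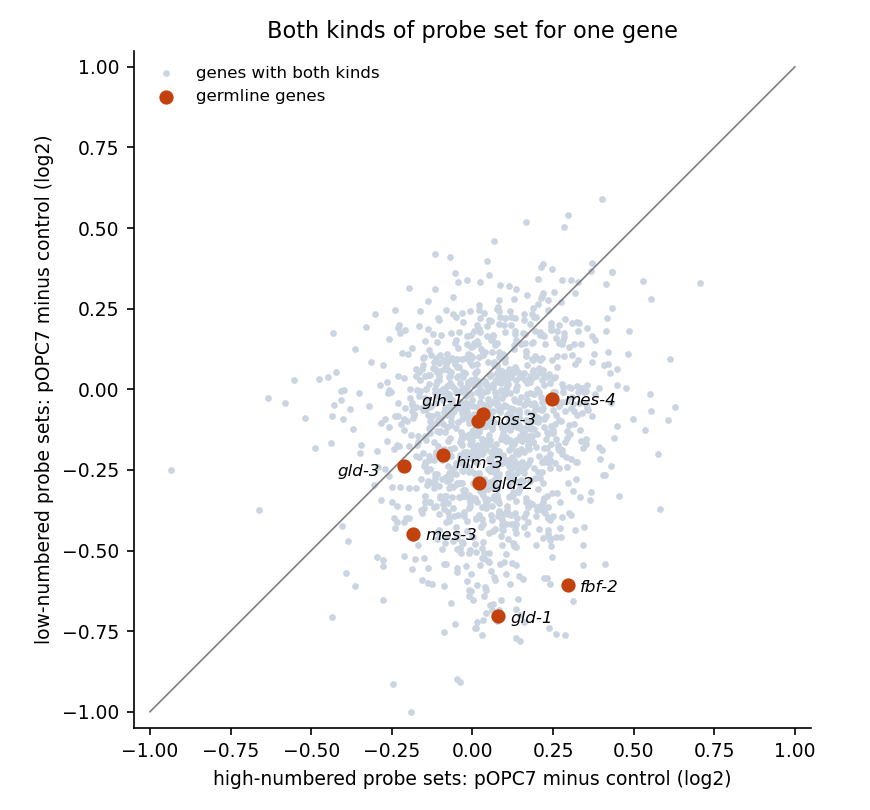
Difference (pOPC7 minus control, log2) of a gene's low-numbered probe sets against that of its high-numbered ones, for the 1306 genes with both at the measured limit (grey) and the 9 germline genes with both (labelled, all probe sets). The 9 genes lie below the diagonal of equal values, as do 74.7% of the grey points.

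The disagreement within genes can be set beside single values. For one probe set its SD was 0.23 over 1721 genes, and 0.28 over the 10 germline genes. This SD describes single probe sets within 1 pair of arrays, so it holds no variation between arrays or animals, and a value averaged over several probe sets is not on the same footing. The 5 genes fbf-1, zim-1, zim-3, mes-2 and mus-81 rest on 1 probe set each and differed by at least 0.23 in size, as did rec-8 (0.25) and the dim him-8 (0.32). The share of all measured genes past 0.23 was not counted. At the larger step of 1.2-fold (0.26), 11.6% of all measured genes were higher and 6.06% lower, so differences of this size were common. mes-2 (-0.24) and rec-8 were below 0.28.

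Other germline genes were taken from lists drawn up by function in the same pathways. Of 90 such genes 82 were on the array and 74 measured. The median difference of the 74 was -0.01, beside 0.04 for all measured genes. Of the 74, 35 were above 0, beside 57.8% of all measured genes. None passed 1.5-fold in either direction, which only 0.732% of all measured genes did upward and 0.211% downward. The 27 measured ones with both kinds of probe set had the low-numbered value lower in 21, and from high-numbered probe sets alone 6 changed sign. Among 8 measured germ granule genes (median 0.02) the translational regulators ifet-1 (-0.24), car-1 (-0.23) and cgh-1 (-0.14) were lower, but from high-numbered probe sets alone they stood at 0.04, -0.20 and -0.07, and the Argonaute gene csr-1 (0.08) was highest. Among 19 genes of proliferation, meiotic entry and sex (median -0.03) lag-1, the transcription factor of Notch signalling, was lowest (6.77 with pOPC7, 7.12 in the control, -0.35, and -0.18 from high-numbered probe sets alone). The sex-determination genes fem-1 (-0.32) and fem-2 (-0.22) and the Nanos family gene nos-1 (-0.17) followed. From high-numbered probe sets alone fem-1 was above 0 (0.15, with -0.78 from low-numbered ones) and fem-2 was -0.09. The Notch receptor gene glp-1 differed by -0.13, and its stem cell targets lst-1 and sygl-1 by 0.11 and 0.03.

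Genes of meiotic chromosome structure also had no common shift (median -0.03 over 13). The checkpoint kinase gene chk-2, which starts pairing, was highest (0.19). The nuclear envelope gene sun-1 (-0.18), the kinase gene plk-2 (-0.18) and the cohesin gene smc-3 (0.14) came next, of which sun-1 was above 0 (0.02) and plk-2 was -0.06 from high-numbered probe sets alone. The 26 measured genes of recombination and repair had a median of -0.01 and the widest range of these lists. zhp-1, a relative of the crossover factor gene zhp-3, had 6.62 with pOPC7 and 7.05 in the control (-0.42). rad-50 (0.35) and mre-11 (-0.30), whose products work in one complex on DNA ends, had opposite signs, although mre-11 was -0.05 from high-numbered probe sets alone and -0.56 from low-numbered ones. dsb-2, needed for breaks, was higher (0.31). Of the 8 measured germline chromatin genes (median 0.04) set-2 (-0.22) and met-1 (-0.20) were lowest and set-25 (0.15) and met-2 (0.14) highest, met-2 being below 0 (-0.04) from high-numbered probe sets alone.

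**Figure D5:**
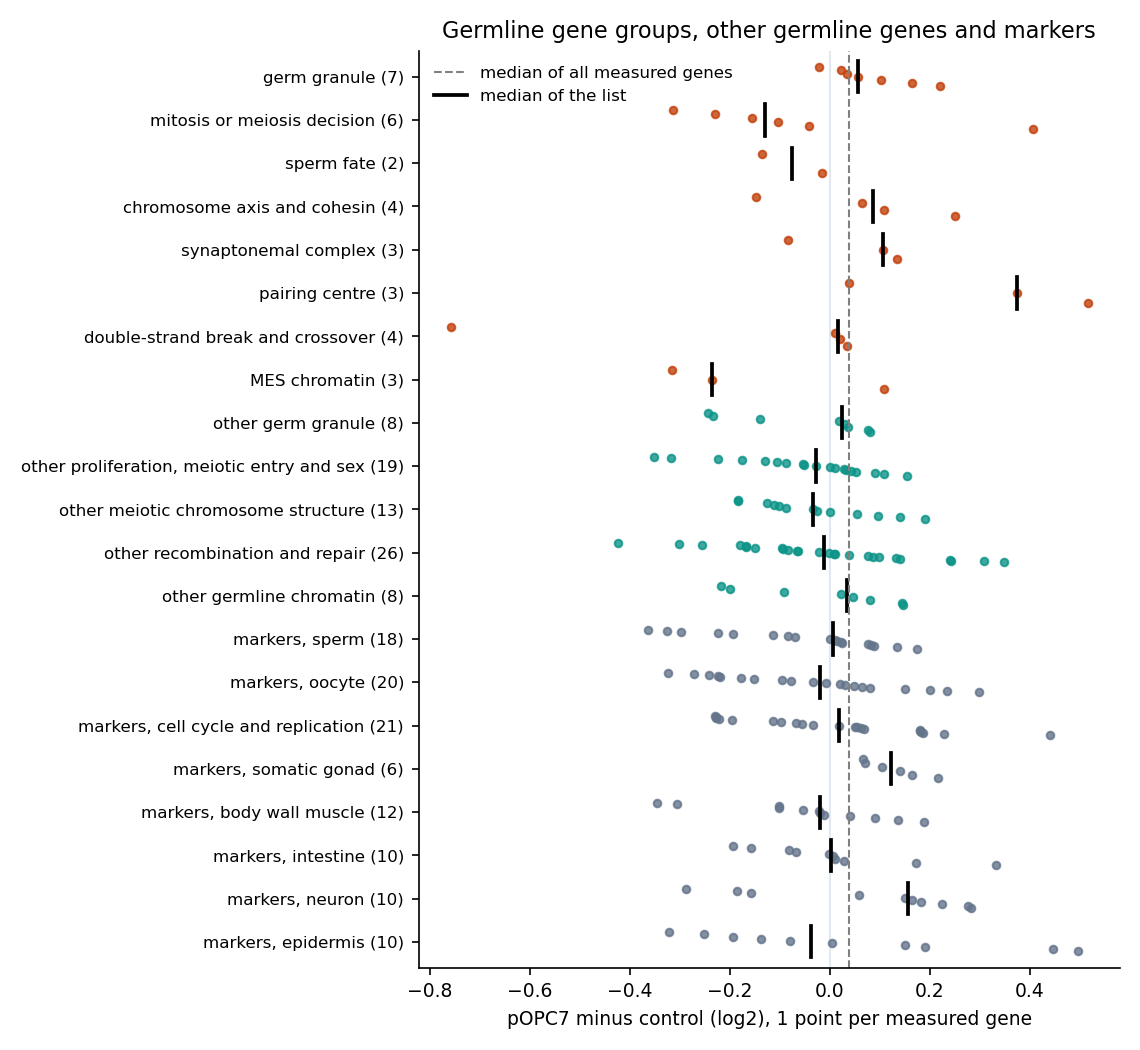
Difference (pOPC7 minus control, log2) of each measured gene in the 8 role groups (orange), the 5 lists of other germline genes (green) and the 8 marker lists (grey), with list medians as bars and the number of measured genes in brackets. Most medians lie within 0.1 of the median of all measured genes (0.04, dashed), and those of the pairing-centre and MES groups rest on 3 genes each.

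As lists, markers of sperm, of oocytes and of the cell cycle differed little. Sperm markers, led by the bright major sperm protein genes, had a median of 0.01 over 18 measured of 20 on the array. The summed linear level of the 20 with pOPC7 was 0.98 of that in the control. Of the 18, 9 were above 0 and 8 below. fer-1 (-0.36), sss-1 (-0.33), spe-4 (-0.30) and spe-15 (-0.22) were lowest, and the highest difference was 0.17. Oocyte markers had a median of -0.02 over 20, with a summed level at 0.97 of the control, from cbd-1 (-0.32), oma-2 (-0.27) and mex-6 (-0.24) to perm-2 (0.30), with mex-6 above 0 (0.05) from high-numbered probe sets alone. The cell cycle and replication genes that dividing germ cells share with somatic cells had a median of 0.02 over 21, with cdt-1 highest (7.19 with pOPC7, 6.75 in the control, 0.44), followed by mcm-7 (0.23), cdc-6 (-0.23) and cdk-1 (-0.23). Markers of the somatic gonad, which carries the stem cell niche, were above 0 in 6 of 6 measured genes, with a median of 0.12. Of all measured genes 57.8% were above 0. The summed level of the 11 somatic gonad markers on the array, measured or not, was 1.10 of the control. gon-1 (0.22), ipp-5 (0.17), fkh-6 (0.14) and ceh-18 (0.10, and 0.33 from high-numbered probe sets alone) led them. No marker of these lists is at 0, since the deposited values have no 0, and the niche ligand gene lag-2 was dim on both arrays (3.90 with pOPC7, 3.54 in the control). The part of these cell types in the germline values was not tested.

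Markers of tissues outside the gonad gave medians of -0.02 for body wall muscle (12 measured), 0.00 for intestine (10), 0.16 for neurons (10) and -0.04 for epidermis (10). The genes that differed most were act-4 (-0.35), mlc-1 (-0.31), hlh-1 (0.19) and myo-3 (0.14) in muscle and elt-7 (0.33), cpl-1 (-0.19), pho-1 (0.17) and vha-6 (-0.16) in the intestine, with pho-1 at 0.35 from high-numbered probe sets alone. In neurons they were egl-21 (-0.29), sbt-1 (0.28), unc-119 (0.28) and unc-13 (0.22), and in the epidermis nhr-23 (0.50), rol-6 (0.45), lin-26 (-0.32, and -0.18 from high-numbered probe sets alone) and elt-1 (-0.25).

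By chromosome, the RefSeq annotation places 12 of the 34 germline genes on I, 5 on II, 1 on III, 11 on IV, 5 on V and none on the X. The X holds 10.3% of all measured genes, and these had a median difference of 0.09, beside 0.02 to 0.05 on the autosomes. The listed genes were thus all autosomal. Of the 32 measured ones, 11 were on I, which holds 1556 of the 8059 measured genes, and 10 on IV, which holds 1451.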

How the data were processed

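Biotin-labelled RNA amplified from 200 ng of total RNA of whole L4 animals, 1 pOPC7 and 1 control sample, was hybridised to arrays with 22625 probe sets. The deposited log2 values were made with RMA, per the submitters' processing notes. RMA corrects background, quantile-normalises and summarises each probe set. The scale was read from the values, which run from 1.78 to 13.90, and column medians were 5.99 (pOPC7) and 5.94 (control). The version was not given in the sources used here, nor whether a column averages several hybridisations. Depth does not apply to arrays, and their number limits the precision.

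Names came from the platform annotation, which gave 20766 probe sets 1 symbol, 887 several and 972 none. Singly named probe sets were averaged per gene. Entrez identifiers of 20701 of these probe sets matched the RefSeq table (assembly WBcel235), used for chromosomes and neighbours. Differences are pOPC7 minus control, with thresholds of 1.5-fold and 1.2-fold.

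All genes of the list are named. Described singly were those with an absolute difference of at least 0.25 for the gene or a probe set, those with probe sets of opposite sign and the member of each group that differed least. Of every other list up to 4 measured genes with the largest difference were named, plus genes said to have been looked up later, glp-1, lst-1, sygl-1 and lag-2. The genes, lists and thresholds were chosen with earlier results of these data known. The code was tested on simulated data. Alternatives were other limits on level, centring, removal of a level trend (loess, span 0.3), probe sets without a suffix, the brightest or median probe set and a threshold of 3 local robust SDs. Leaving out low-numbered probe sets, or setting the medians of both kinds equal, was added after seeing the data. Python 3.11.15, pandas 2.3.3, numpy 2.4.6, statsmodels 0.14.6 and matplotlib 3.10.9 were used.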

Additional observations from a re-analysis of the deposited data

How the results depend on the processing

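With 1 array per group no replicate could be left out, and every value describes 2 arrays. No paired analysis was possible because each group holds 1 array. The median of the measured germline genes ran from -0.01 (probe sets without a suffix, removal of the level trend, or centring) to 0.05 (brightest probe set). The gene mus-81 was lower by 1.5-fold under every alternative run, but most of these could not change its value. It has 1 probe set, high-numbered and without a suffix. Only centring and removal of the level trend could move its difference (-0.79 in both). When suffixed probe sets, which may match several transcripts, were left out, 23 measured genes were left. Of these 11 were above 0, beside 57.0% of all measured genes. Lower by 1.5-fold were 2, mus-81 and fbf-2 (-0.61), while 28 of all measured genes were. In that setting fbf-2 rests on its dim low-numbered probe set alone, and the suffixed, high-numbered one left out had 0.30. With the level trend removed 13 of 32 were above 0, and 50.6% of all measured genes. Without low-numbered probe sets the SD within germline genes was 0.0727, but from only 2 genes and 5 probe sets, beside 0.19 over 444 genes of the whole array. In that setting 24 of 32 genes were above 0, beside 63.6% of all measured genes. That setting turned the sign of glh-1, gld-1 (0.08), gld-2, fbf-2 (0.30) and nos-3. Setting the medians of both kinds equal turned glh-1 and nos-3 and left 21 of 32 genes above 0, beside 63.3% of all measured genes, and the brightest probe set turned gld-1, gld-2, fbf-2 and nos-3. The median over probe sets moved gld-3 to -0.52. The median of the other germline genes ran from -0.06 to 0.01 over the alternatives. The cause was not tested.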

Other observations

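X-linked genes had a higher median difference than the genes of each autosome, with or without the low-numbered probe sets, and this was not tested. Over 831 measured genes of the X the median difference was 0.09 and 64.9% were above 0, while the autosomes ran from 55.0% on I to 59.5% on II. Without low-numbered probe sets the medians were 0.12 on the X (811 genes) and 0.05 to 0.06 on the autosomes. No gene of the germline list is on the X, so this bears on the values of all measured genes that the list was set beside.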
